A study of Mus musculus with 21 samples.

Results

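Described here are 10 mouse genes whose products fill or accompany the secondary (specific) and tertiary (gelatinase) granules of neutrophils: Ltf, Lcn2, Camp, Ngp, S100a8, S100a9, Cd177, Retnlg, Mmp8 and Mmp9. They were chosen by name from what is known of neutrophils, but with earlier results of these data known. The counts below are therefore not from a set picked independently of these data. All 10 were found among the 23148 gene symbols of 3 deposited tables, by 1 identifier each in every table. Poly(A) RNA of 21 libraries from wild-type (WT) mouse cells was sequenced in a study of iron and eosinophil differentiation. The question followed here is how much RNA of these neutrophil genes the libraries labelled as eosinophils hold, and how it varies with cell source, T2 cytokines and iron.

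The first table held bone marrow eosinophils (n = 3) and bone marrow granulocyte-macrophage progenitors (GMPs, n = 3), both untreated. The second held untreated resting eosinophils (n = 3) and T2 eosinophils (n = 3), which received cytokines. The T2 treatment labels name IL-4 and GM-CSF in each library, with IL33, IL34 or IL35 in libraries 1, 2 and 3, and the 3 were kept as 1 group. The third table held bone marrow-derived eosinophils (BMDEs). These were cultured with SCF and FLT3-Ligand (100 ng/mL each) to day 4 and then with IL-5 (10 ng/mL), and RNA was analysed on day 7. Control BMDEs (n = 2) received no iron agent. The iron chelator deferoxamine (DFO, 5 µM, n = 3) or the iron donor ferric ammonium citrate (FAC, 10 µM, n = 4) was added to the others on day 4. The labels attach the BMDE protocol to every sample, so the isolation of the other cells, their purity and the time of the T2 treatment are not given in the sources used here. Nothing in the labels says that libraries came from separate animals or cultures, so a p-value measures only the spread between these libraries, which may be technical.

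Total counts were 25857382 to 28992668 per library in the first table, 16073573 to 18995878 in the second and 16809789 to 17991878 in the third. Levels are in CPM, a gene's counts relative to the total of its library, scaled within each table by edgeR's TMM factors. A gene was called at a Benjamini-Hochberg adjusted p under 0.05 over all genes of a comparison in edgeR's quasi-likelihood F test. Bone marrow eosinophil library 3 stood apart from libraries 1 and 2, and FAC replicate 6 stood apart from the other FAC libraries, so results that rest on either are given with and without it. All 12 genes of an eosinophil marker list (Siglecf, Ccr3, Il5ra, Epx, Prg2 and others) had reads in every eosinophil group. Their summed level was 20414 to 37458 CPM in bone marrow eosinophils, 13033 to 13564 CPM in T2 eosinophils, 9823 to 10310 CPM in the resting cells and 19078 to 70501 CPM in BMDEs.

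Neutrophils make their granules in sequence as they mature in the bone marrow. Primary granules, with myeloperoxidase and elastase, are filled at the promyelocyte stage, secondary granules at the myelocyte and metamyelocyte stages, and tertiary granules later still. Transcription of the secondary granule genes depends on the factor C/EBP epsilon, which eosinophils use as well. Among the 10 genes, Ltf encodes the iron-binding lactoferrin and Lcn2 the siderophore-binding lipocalin 2. Camp encodes cathelicidin, an antimicrobial peptide precursor, and Ngp a related cathelin-domain protein. Cd177 is a membrane protein of specific granules, Mmp8 is a collagenase, and Mmp9 is the gelatinase of tertiary granules. Retnlg encodes a secreted resistin-like protein. S100a8 and S100a9 form the heterodimer calprotectin, which lies mostly in the cytosol, so for this pair the granule name is only loose.

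Because the 10 genes moved together in several comparisons, their promoters were searched for 4 short motifs in the 250 bases before the RefSeq transcription start (GRCm38.p6), on both strands. Mmp9 has no entry in the promoter table used, which leaves 9 members. The C/EBP motif TTNNGNAA was present in 8 of 9 members and in 36.8% of 32851 entries of the same length. The PU.1 motif GAGGAA was present in 5 of 9 against 23.3% of entries, the GATA motif AGATAA in 2 of 9 against 9.99%, and the TATA box TATAAA in 2 of 9 against 12.4%. None of the motifs contains another, and each was searched on its own. Of the 9 eosinophil markers with an entry, 7 held the C/EBP motif. Shown here, 5′ to 3′ on the gene's strand with C/EBP matches in capitals, are stretches before the start of 4 members on which the results below turn: Ltf for iron, Ngp and S100a9 as abundant members of BMDEs, and Retnlg for resting eosinophils.
Ltf: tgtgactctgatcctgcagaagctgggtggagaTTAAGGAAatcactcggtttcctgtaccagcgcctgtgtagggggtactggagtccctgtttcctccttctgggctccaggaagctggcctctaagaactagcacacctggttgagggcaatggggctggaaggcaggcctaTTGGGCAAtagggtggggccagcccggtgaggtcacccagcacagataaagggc
Ngp: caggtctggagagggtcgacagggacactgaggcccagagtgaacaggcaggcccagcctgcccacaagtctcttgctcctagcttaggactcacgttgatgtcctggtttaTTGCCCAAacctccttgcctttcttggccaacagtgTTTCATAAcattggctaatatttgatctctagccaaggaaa
S100a9: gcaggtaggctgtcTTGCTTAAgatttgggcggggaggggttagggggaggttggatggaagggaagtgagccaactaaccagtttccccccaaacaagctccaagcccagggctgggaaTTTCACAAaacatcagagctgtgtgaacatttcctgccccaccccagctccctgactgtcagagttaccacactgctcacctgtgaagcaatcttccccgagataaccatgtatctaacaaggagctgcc
Retnlg: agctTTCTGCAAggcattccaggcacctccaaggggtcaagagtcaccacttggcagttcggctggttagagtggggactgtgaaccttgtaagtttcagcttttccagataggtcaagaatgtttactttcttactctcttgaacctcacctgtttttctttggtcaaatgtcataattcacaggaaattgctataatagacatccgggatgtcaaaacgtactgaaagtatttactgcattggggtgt
These stretches lie at chr9:111019042-111019270 (plus strand, Ltf), chr9:110419558-110419746 (plus strand, Ngp), chr3:90695722-90695971 (minus strand, S100a9) and chr16:48872358-48872607 (plus strand, Retnlg). Ltf, Ngp and S100a9 each show 2 matches and Retnlg shows 1, far from its start; a further match of Ngp lies outside the printed stretch. A match is a description of the letters and not a measured binding site.

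All 10 genes are protein-coding in GENCODE M21 on GRCm38. Ltf (chr9:111019271-111042767), Ngp (chr9:110419747-110423012), Camp (chr9:109847379-109849617) and Mmp8 (chr9:7558456-7568485) lie on chromosome 9. S100a8 (chr3:90668978-90670035) and S100a9 (chr3:90692632-90695721) are close neighbours on opposite strands of chromosome 3. Lcn2 (chr2:32384633-32388252) and Mmp9 (chr2:164940780-164955850) lie on chromosome 2, Cd177 (chr7:24743983-24760311) on chromosome 7 and Retnlg (chr16:48872621-48874496) on chromosome 16.

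The 10 genes took very different shares of the RNA in the 7 groups. They made up 3.35%, 6.58% and 13.6% of all counts in bone marrow eosinophil libraries 1, 2 and 3 (95% Wilson intervals 3.34 to 3.35%, 6.57 to 6.59% and 13.62 to 13.65%, which cover counting error only). BMDE libraries gave 0.628% to 1.97%. Resting libraries gave 0.268% to 0.290%, above the T2 libraries at 0.102% to 0.107%. In GMPs the share was 0.00786% to 0.0112%. The ranges of the 7 groups did not overlap, with DFO (1.76% to 1.97%) above control (0.933% and 1.11%) and FAC (0.628% to 0.855%) among the BMDEs. The 3 tables were counted and scaled separately, so the order between tables is set side by side and was not tested. In bulk RNA, fewer cells of a type and less RNA per cell cannot be told apart.

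**Figure D1:**
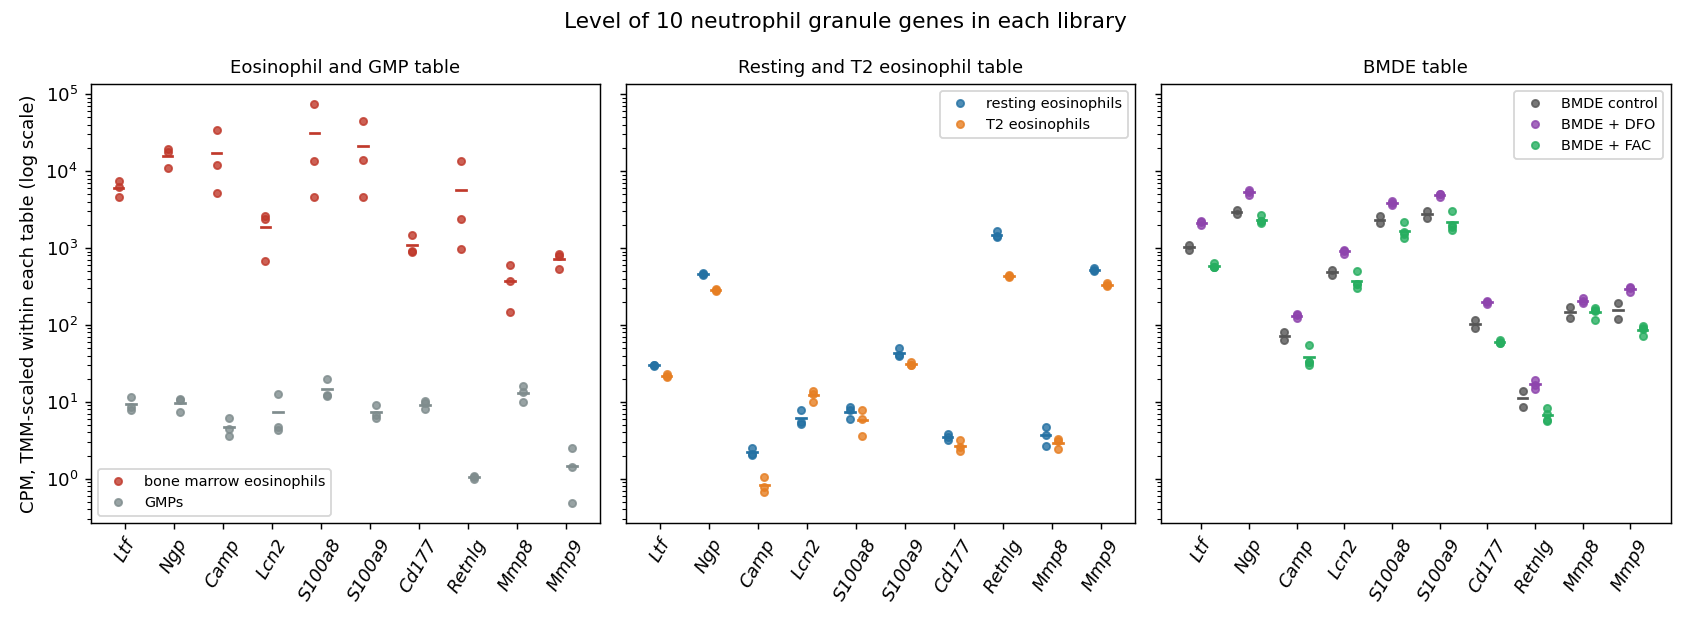
CPM of each of the 10 genes in each library (points, log axis) with the group mean (bar), in 3 panels for the 3 separately scaled tables. Bone marrow eosinophils lie above GMPs for all 10 genes, Retnlg lies at 1408 to 1647 CPM in resting eosinophils, and DFO points lie above control points throughout the BMDE panel.

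In bone marrow eosinophils against GMPs, all 10 genes were higher, by 4.83 (Mmp8) to 12.40 (Retnlg) on the log2 scale, with a median of 10.03. In this comparison 19.8% of 12214 tested genes were called, 13% higher and 6.78% lower, and the median log2 difference of all tested genes was 0.01. Every eosinophil library lay above every GMP library for all 10; 48.3% of tested genes were apart in this way, 23.7% higher and 24.7% lower. Of the marker and granule lists, 12 of 12 eosinophil markers were higher too (median 7.27).

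The iron-linked pair was abundant in every bone marrow eosinophil library. Ltf stood at 4658, 7364 and 6143 CPM in libraries 1, 2 and 3 and at 8.47, 7.72 and 11.5 CPM in the GMP libraries. The eosinophil libraries thus lay within a factor of 1.58 of each other and far above GMPs (log2 fold change 9.36, SE 0.36, adjusted p = 0.000113). Lcn2 stood at 681.6, 2383 and 2582 CPM against 4.75, 4.36 and 12.7 CPM (8.01, SE 0.81, adjusted p = 0.00131). Eosinophil library 1 was the low one for Lcn2, and GMP library 3 the high one; without GMP replicate 3 the log2 fold change was 8.68.

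The cathelicidin family differed within itself. Ngp was high in all 3 eosinophil libraries at 10867.5, 17680 and 19257 CPM, against at least 7.30 CPM in each GMP library and 9.59 ± 2.00 CPM on average (SD, n = 3) (10.70, SE 0.43, adjusted p = 0.000113). Camp spread over a wider range, at 5130, 12033 and 33822 CPM in libraries 1, 2 and 3, against 3.59 to 6.10 CPM in GMPs (11.82, SE 0.99, adjusted p = 0.000668). Without eosinophil replicate 3 the log2 fold change of Camp was 10.82.

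The calprotectin genes and Retnlg were the most uneven between the eosinophil libraries. S100a8 stood at 4644, 13668 and 75344 CPM in libraries 1, 2 and 3 and at 11.8 to 19.6 CPM in GMPs (11.07, SE 1.38, adjusted p = 0.00288). S100a9 stood at 4660.0, 13884 and 44785 CPM against 6.12 to 9.17 CPM (11.49, SE 1.12, adjusted p = 0.0012). Retnlg stood at 982.2, 2400 and 13599 CPM against 0.991 to 1.09 CPM, 33 to 34 reads a library (12.40, SE 1.37, adjusted p = 0.00185). In all 3 genes library 3 was highest and library 1 lowest. Without eosinophil replicate 3 their log2 fold changes were 9.29, 10.30 and 10.65, and each stayed called.

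The membrane protein and the proteases completed the set. Cd177 was 891, 1457 and 904 CPM against 7.96 to 10.2 CPM in GMPs (6.88, SE 0.31, adjusted p = 0.000113). Mmp9 was 531, 778 and 846 CPM against 0.480 to 2.52 CPM (8.91, SE 0.68, adjusted p = 0.000463; 9.53 without GMP replicate 1). Mmp8, at 148, 372 and 594 CPM against 9.82 to 15.8 CPM, had the smallest difference of the 10 (4.83, SE 0.55, adjusted p = 0.00209). Per length it held 6.81% of the set's reads in GMPs and 0.130%, the smallest share, in eosinophils.

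Libraries 1, 2 and 3 of bone marrow eosinophils did not differ by 1 common factor. From library 1 to library 3, S100a8 differed 16.2-fold, Retnlg 13.8-fold, S100a9 9.61-fold and Camp 6.59-fold. Mmp8 (4.03-fold) and Lcn2 (3.79-fold) were intermediate, while Ngp (1.77-fold), Mmp9 (1.59-fold), Ltf (1.32-fold) and Cd177 (1.01-fold) differed little. With plain library sizes the ratios of S100a8, Retnlg, S100a9 and Camp were smaller, at 11.1, 9.46, 6.57 and 4.51. Those of Ltf and Cd177 turned to 0.901 and 0.694, so the direction of Ltf and Cd177 is not settled. From library 1 to library 2 the ratios were more even, at 1.46 (Mmp9) to 3.50 (Lcn2). With 1 library each these ratios have no test.

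**Figure D2:**
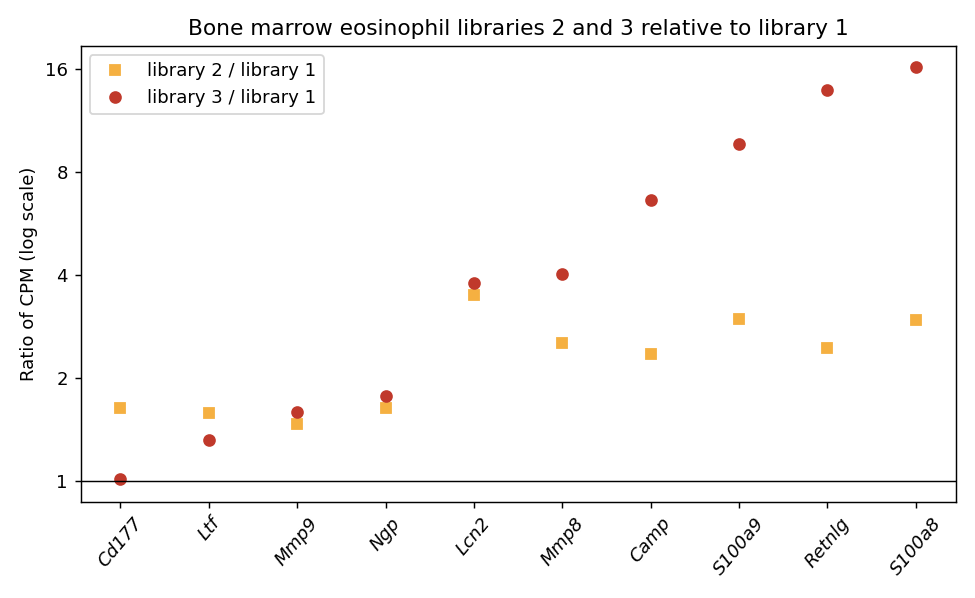
Ratio of CPM in bone marrow eosinophil libraries 2 (squares) and 3 (circles) to library 1 for each gene, on a log axis, ordered by the library 3 ratio. Ratios for library 2 lie between 1.46 and 3.50, whereas those for library 3 spread from 1.01 (Cd177) to 16.2 (S100a8).

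Other lists moved differently across these 3 libraries. The summed level of the 12 neutrophil markers outside the 10 genes (Ly6g, Cxcr2, Csf3r, Chil3 and others) was 6425, 11592.5 and 10769.8 CPM, 1.68-fold in library 3 over library 1. Chil3 alone gave 5475, 10177 and 8653 CPM of these sums, so this ratio mostly describes Chil3. The eosinophil list was 1.82-fold and the erythroid list 1.91-fold over library 1. Within the eosinophil list Ear1, Ear2 and Ear6 rose more steeply than the sum. They stood at 538, 431 and 357 CPM in library 1 and at 2735, 1919 and 1251 CPM in library 3. These 3 are named because their profiles were close to that of the set, and the other genes of the list are not given singly. Primary granule genes were 0.866-fold and progenitor markers 0.446-fold. The 10 genes together were 5.96-fold, the widest of these ratios. All these list ratios are of TMM-scaled levels and depend on that scaling. What part cell make-up has in these differences was not tested.

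The wider granule programme gives the setting of the 10 genes. Of 14 tested primary granule genes 8 were called higher and none lower, with a median log2 difference of 1.06. The peroxidase gene Mpo was 32181 CPM in eosinophils and 47073 CPM in GMPs (−0.55, adjusted p = 0.267, not called), and the elastase gene Elane was higher by 1.01 (adjusted p = 0.0283). Of 27 tested genes of other secondary, tertiary and secretory granules 24 were higher (median 4.44). Among them were Fcnb, the ficolin of myeloid granules (7.21), and Chil3, a chitinase-like protein (8.78). The membrane protease gene Mmp25 had the largest fitted difference, from 0 to 0.0320 CPM in GMPs to 23.8 to 56.5 CPM, too few GMP reads for a fold. The 3 not called were Slpi, B4galt1 and Ppbp.

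Neutrophil receptors were higher for 14 of 17 tested genes (median 3.08). The surface antigen gene Ly6g stood at 95.7 CPM on average against 0.175 CPM (9.05, adjusted p = 0.00118). Csf3r, the G-CSF receptor, was not called (0.44, adjusted p = 0.27). Of 14 granulocyte transcription factors 6 were higher and 1 lower: Cebpe differed by 3.75 (341 against 25.3 CPM, adjusted p = 0.000341), and Irf8, a monocyte-lineage factor, fell by 3.65. Of 18 tested receptors, partners and inhibitors of the 10 proteins, 8 were higher and 1 lower. Itgam and Itgb2, the integrin chains of Mac-1, rose by 3.97 and 3.61, while the CD177 ligand gene Pecam1 fell by 1.10.

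Markers of other cells differed in the same comparison, in directions that varied by list. All 11 erythroid and all 9 tested B cell genes were higher in the eosinophil libraries, with summed levels of 1355 to 2585 CPM against 26.3 to 27.9 CPM and of 317 to 664 CPM against 42.3 to 58.4 CPM. No erythroid marker was at 0 in GMPs, whereas Ms4a1 and Pax5 of the B cell list were. Of 15 monocyte and macrophage markers 8 were higher and 6 lower, and of 10 progenitor markers 1 was higher and 2 lower. Of 9 tested dendritic cell markers 3 were higher and 1 lower. For mast cells and basophils 7 of 8 were higher, and for T and NK cells 3 of 4 tested. Neutrophil markers outside the 10 genes were higher for 11 of 12 (6425 to 11592.5 CPM against 306 to 338 CPM). Their part in the values of the 10 genes was not tested.

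Profiles over the 6 libraries of this table were compared for 8460 genes outside the set. These had a mean of at least 10 CPM in bone marrow eosinophils, the group in which the set is high. The 9 genes named here with profiles close to the median profile of the set were Ear2, Chil3, Ear1, Itgb2l, Ms4a1, Chil1, Serpinb2, Olfm4 and Ear6. Likeness was the root mean square distance of centred log2(CPM + 0.1), which ran from 0.539 for Ear2 to 0.776 for Ear6. They include 3 eosinophil ribonuclease genes (Ear1, Ear2 and Ear6), the B cell marker Ms4a1 and 4 neutrophil genes (Chil3, Itgb2l, Chil1 and Olfm4). A small distance does not mean the same order of the eosinophil libraries. Ms4a1 was lowest in library 2, at 81.4, 41.1 and 129 CPM in libraries 1, 2 and 3. Of the 10 genes themselves Ltf was nearest to the median (0.370) and Mmp8 farthest (2.55).

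Relative to each other, and per length of transcript, the shares of the 10 genes differed between bone marrow eosinophils, resting eosinophils and control BMDEs. In bone marrow eosinophils S100a8 (33.6% of the summed reads per kilobase of the set), S100a9 (25.7%), Camp (15.8%) and Ngp (14.3%) led, and Retnlg held 5.15%. In resting eosinophils Retnlg alone held 79.2% (78.1 to 80.9% over 3 libraries), followed by Ngp (11.8%) and Mmp9 (5.19%), with S100a9 at 2.61% and S100a8 at 0.481%. In control BMDEs S100a9 (38.6%), S100a8 (35.0%) and Ngp (17.8%) led, and Retnlg was at 0.136%.

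Neighbours in these orders were not always apart. Among the 3 bone marrow eosinophil libraries the shares of S100a8 (24.6 to 46.9%) and S100a9 (23.1 to 28.0%) overlapped, and those of Ngp (4.77 to 22.9%) overlapped both Camp (13.5 to 17.4%) and Retnlg (4.24 to 6.94%). In control BMDEs the order of S100a9 and S100a8 turned over with the authors' FPKM, where S100a8 held 53.4% and S100a9 31.9% of the set. The place of Retnlg did not depend on that choice, at 79.0% in resting eosinophils and 0.0960% in control BMDEs by FPKM.

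**Figure D3:**
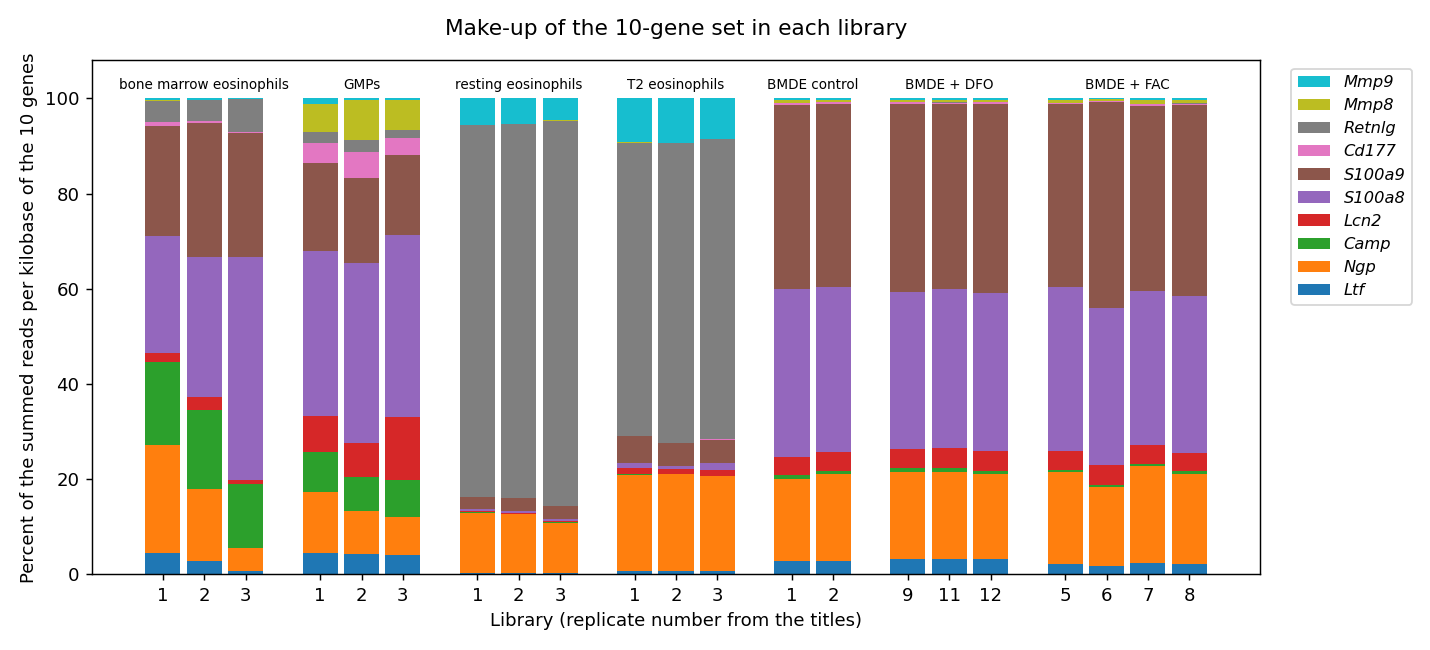
Each bar is 1 library and shows the share of each gene in the summed reads per kilobase of the 10 genes, in percent, with libraries grouped by condition. Retnlg fills 78.1 to 80.9% of the bars of resting eosinophils and under 1% of those of BMDEs, where S100a8, S100a9 and Ngp fill most of the bar.

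In absolute terms resting eosinophils had low levels of most of the set. Camp (2.02 to 2.50 CPM), Cd177 (3.24 to 3.77), Mmp8 (2.66 to 4.66), Lcn2 (5.22 to 7.92) and S100a8 (5.92 to 8.47) all stayed under 10 CPM. Ltf was 29.0 to 30.6 CPM and S100a9 39.2 to 49.5 CPM. The higher genes were Ngp (440.4 to 474 CPM), Mmp9 (504 to 545 CPM) and Retnlg (1408 to 1647 CPM). S100a9 exceeded S100a8 per length by 4.33- to 6.44-fold here, against 0.557- to 0.951-fold in bone marrow eosinophils.

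With T2 cytokines, 6 of the 10 genes fell, 1 rose and 3 were not called. In this comparison 76.1% of 11345 tested genes were called, 38.2% higher and 37.9% lower, so 7 called of 10 is near the background share. The groups did not overlap for 8 of 10, 1 higher and 7 lower, against 77.6% of tested genes, 38.8% higher and 38.9% lower. Retnlg fell by 1.79 on the log2 scale, from 1426, 1408 and 1647 CPM in resting libraries 1, 2 and 3 to 413.7, 442.5 and 437.8 CPM (SE 0.06, adjusted p = 8e-14). Every T2 library lay below every resting library. It remained the most abundant of the 10 genes per length in T2 eosinophils, with 62.6% of the set.

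Ngp fell by 0.67, from 440.4 to 474 CPM in resting libraries to 279 to 296 CPM (SE 0.04, adjusted p = 8.02e-10). Camp fell by 1.40, but on few reads, 35 to 49 in resting and 11 to 17 in T2 libraries (SE 0.30, adjusted p = 0.000537). Mmp9, the gelatinase, fell by 0.65, from 504 to 545 CPM to 317 to 350.0 CPM (SE 0.05, adjusted p = 3.06e-09). S100a9 fell by 0.48 (SE 0.08, adjusted p = 7.18e-05) and Ltf by 0.45 (SE 0.07, adjusted p = 1.98e-05), without overlap between groups in either.

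Lcn2 was the exception. It stood at 5.22, 5.46 and 7.92 CPM in resting and 12.6, 10.1 and 13.8 CPM in T2 eosinophils, a rise of 0.98 on the log2 scale (SE 0.16, adjusted p = 3.86e-05). The reads behind it were few, 93 to 137 in resting and 166 to 246 in T2 libraries. No T2 library overlapped a resting one. S100a8 (−0.35, 95% interval −0.77 to 0.08, adjusted p = 0.162), Cd177 (−0.38, −0.80 to 0.04, adjusted p = 0.117) and Mmp8 (−0.32, −0.78 to 0.14, adjusted p = 0.225) were not called. S100a8 passed with a replicate block (−0.38, adjusted p = 0.0414) and without T2 replicate 3 (−0.63, adjusted p = 0.0198), and Cd177 passed with upper-quartile factors (−0.50, adjusted p = 0.0471).

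The neutrophil genes outside the set did not follow one direction with T2 cytokines. Of 8 tested neutrophil markers 5 rose and 2 fell, and the summed level of the list went from 78.1 to 80.6 CPM to 385 to 399 CPM. Of 15 tested receptors 8 rose and 5 fell. Cxcr2, the chemokine receptor, rose by 4.44 and the lectin receptor gene Clec4e by 6.35, while Ly6g fell by 1.08. Of 21 tested secondary, tertiary and secretory granule genes 13 rose and 6 fell: the iron and manganese transporter gene Slc11a1 rose by 5.09, whereas lysozyme (Lyz2) fell by 3.22. Of 11 tested primary granule genes 6 rose and 3 fell. Cebpe fell by 0.93. Of 17 tested receptors, partners and inhibitors of the 10 proteins 9 rose and 6 fell: Cd14 and Tlr4, receptor chains through which calprotectin is known to act, rose by 5.04 and 1.98.

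In BMDEs 8 of the 10 genes rose with DFO and 4 fell with FAC. The 8 rose against control, where 11.6% of 12607 tested genes were called, 6.46% higher and 5.12% lower. For all 10 the DFO libraries lay above both control libraries, whereas 65.7% of tested genes were apart, 32.7% higher. For FAC against control, 6.04% of genes were called and 4.28% were called lower. With FAC 6 of 10 did not overlap with control, all lower, against 36.1% of genes, 19% lower. FAC against DFO, 10 of 10 were lower, where 48.2% of genes were called and 24.8% were called lower, and 10 of 10 were apart, against 55.7% of genes, 28.9% lower. The 3 BMDE comparisons share libraries, so they are not independent of each other.

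Ltf, the lactoferrin gene, stood at 1099 and 941 CPM in control replicates 1 and 2, at 2166, 2240.2 and 2013 CPM with DFO (replicates 9, 11 and 12) and at 565.0, 640.6, 559 and 563 CPM with FAC (replicates 5 to 8). The 3 arms did not overlap. Ltf rose by 1.07 with DFO (SE 0.10, adjusted p = 0.000793), fell by 0.81 with FAC (SE 0.09, adjusted p = 0.00208) and was lower by −1.88 in FAC against DFO (SE 0.08, adjusted p = 9.47e-07). Lcn2, the other iron-linked gene, stood at 519.7 and 446 CPM in control, 835 to 956 CPM with DFO and 303 to 499 CPM with FAC. It rose with DFO (0.90, SE 0.19, adjusted p = 0.0185), a call that was lost without control replicate 1 or 2 or DFO replicate 9 or 11. Without control replicates 1 and 2 the DFO value of Lcn2 was 1.01 and 0.79. Against control the FAC arm of Lcn2 overlapped (−0.38, SE 0.18, adjusted p = 0.234, and −0.55 without FAC replicate 6, adjusted p = 1e-04).

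Ngp stood at 3165 and 2769 CPM in control, 4874 to 5595 CPM with DFO and 2126 to 2692 CPM with FAC. It rose by 0.83 with DFO (SE 0.12, adjusted p = 0.00373), a call that was lost without control replicate 2 (0.74). The difference of Ngp with FAC was not called (−0.35, SE 0.11, adjusted p = 0.104). Without FAC replicate 6 that difference was −0.42 (adjusted p = 0.000446). Camp stood at 81.4 and 63.3 CPM in control, 121 to 138 CPM with DFO and 33.1, 54.4, 30.5 and 33.4 CPM with FAC replicates 5 to 8. It rose by 0.86 with DFO (adjusted p = 0.0423) and fell by 0.93 with FAC (SE 0.21, adjusted p = 0.0346, and −1.15 without FAC replicate 6). The DFO call of Camp was lost with upper-quartile factors and without control replicate 1 or 2 or DFO replicate 9, 11 or 12. Without control replicates 1 and 2 the DFO value of Camp was 1.05 and 0.69. Its FAC call was lost in a fit of the 2 compared arms only and without control replicate 1 or 2 or FAC replicate 5, 7 or 8. Without control replicates 1 and 2 the FAC value of Camp was −0.74 and −1.10. FAC replicate 6 was the high FAC library for both genes.

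S100a8 stood at 2572 and 2084 CPM in control, 3615 to 4076 CPM with DFO and 1601, 2147, 1346 and 1531 CPM with FAC replicates 5 to 8. S100a9 stood at 2992 and 2482 CPM, 4628 to 5048 CPM and 1900.5, 2994, 1727 and 2002 CPM in the same order. In S100a8 FAC replicate 6 lay between the control values, in S100a9 it lay level with the higher control, and in both the other FAC libraries lay below both controls. Both rose with DFO, by 0.73 (SE 0.18, adjusted p = 0.0332) and 0.83 (SE 0.21, adjusted p = 0.0348). Each gene lost its DFO call without control replicate 1 or 2, or without DFO replicate 9, 11 or 12. Without control replicates 1 and 2 the log2 fold changes were 0.89 and 0.58 for S100a8. For S100a9 they were 0.97 and 0.70. With FAC neither was called (−0.49, adjusted p = 0.126, and −0.34, adjusted p = 0.311), whereas without FAC replicate 6 both fell, by 0.63 (adjusted p = 0.00011) and 0.54 (adjusted p = 0.000181).

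Cd177 stood at 116 and 90.4 CPM in control, 185 to 204 CPM with DFO and 58.4 to 63.3 CPM with FAC, without overlap. It rose by 0.93 with DFO (SE 0.11, adjusted p = 0.00179) and fell by 0.79 with FAC (SE 0.10, adjusted p = 0.00315). Mmp9 stood at 190.0 and 119.8 CPM, 264 to 315 CPM and 71.5 to 97.5 CPM, rose by 0.93 with DFO (SE 0.19, adjusted p = 0.0167) and fell by 0.83 with FAC (SE 0.18, adjusted p = 0.0281). The FAC value of Mmp9 was −0.46 without control replicate 1 (adjusted p = 0.31), and its call was also lost without FAC replicate 5 or 8. Its DFO call was lost without control replicate 2 (0.63, adjusted p = 0.129), DFO replicate 9 or DFO replicate 11.

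Retnlg, leading in resting eosinophils, held the smallest per-length share of the set in BMDEs and stood at 13.8 and 8.48 CPM in control, 14.9 to 19.1 CPM with DFO and 5.68 to 8.34 CPM with FAC. Neither its difference with DFO (0.60, SE 0.22, adjusted p = 0.123) nor that with FAC (−0.74, SE 0.22, adjusted p = 0.0811; −0.86 without FAC replicate 6, adjusted p = 0.00355) was called with all libraries. Mmp8 moved least, at 169 and 125 CPM in control, 191 to 221 CPM with DFO and 117 to 165 CPM with FAC. It was not called with DFO (0.49, SE 0.16, adjusted p = 0.0922) or FAC (0.01, 95% interval −0.29 to 0.31, adjusted p = 0.974), and FAC against DFO it was lower by −0.48 (SE 0.14, adjusted p = 0.0168). The per-length ratio of Mmp9 to Mmp8 was 0.861 and 0.735 in control, 1.06 to 1.13 with DFO and 0.417 to 0.474 with FAC, without overlap.

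**Figure D4:**
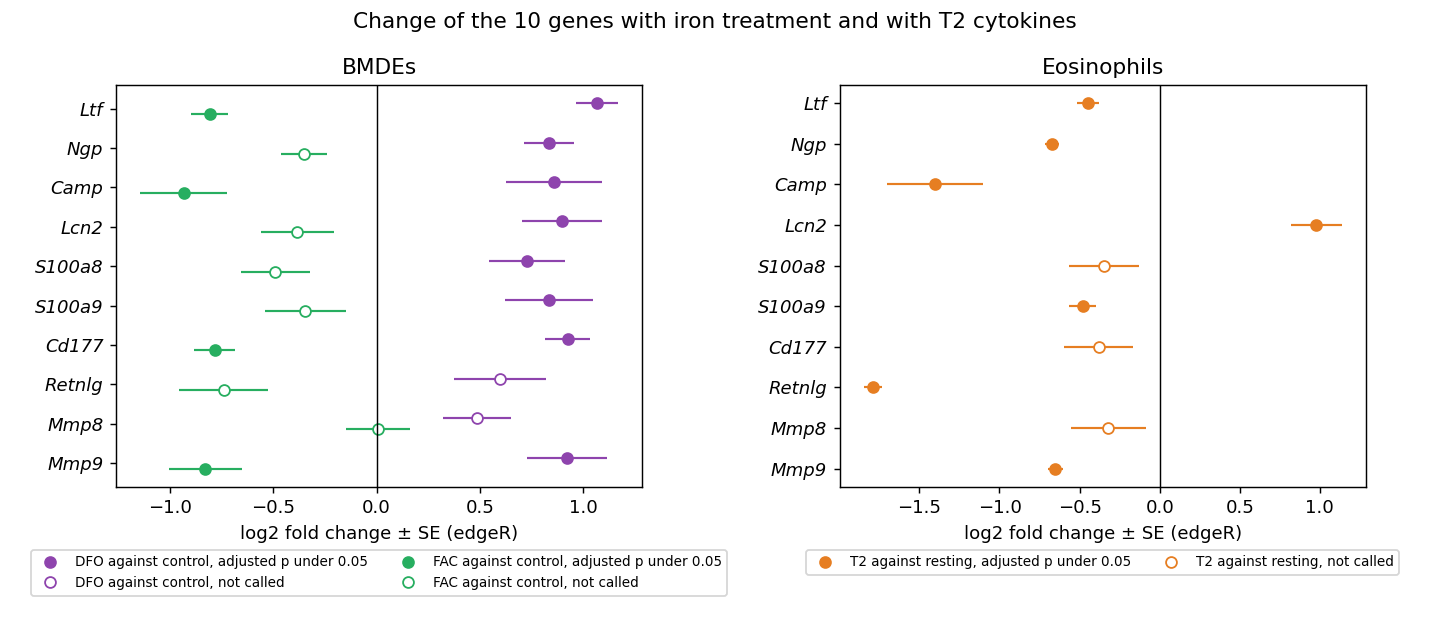
Log2 fold changes with SE from edgeR for each gene, with DFO and FAC against control BMDEs on the left and T2 against resting eosinophils on the right; filled points passed an adjusted p under 0.05. All DFO values are above 0 (0.49 to 1.07), FAC values run from −0.93 to 0.01, and Lcn2 is the only gene above 0 with T2 cytokines (0.98).

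In both comparisons with control the number of calls depended on single libraries, while Ltf and Cd177 kept their calls in all 11 alternatives of each. Without control replicate 1 or 2 the DFO calls among the 10 genes numbered 4 and 2, and without DFO replicate 9, 11 or 12 they numbered 3, 3 and 5; without FAC replicate 6 they numbered 10. For FAC against control, 9 of 10 genes were lower and called without FAC replicate 6 (every gene but Mmp8), 3 without control replicate 2 or FAC replicate 7, and 2 without control replicate 1, FAC replicate 5 or FAC replicate 8.

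Among BMDE arms the 3 leading genes and Lcn2 kept similar proportions, and the others shifted more relative to their own share. S100a9 held 38.6% (control), 39.4% (DFO) and 40.2% (FAC) of the summed reads per kilobase of the set, S100a8 35.0%, 33.2% and 33.2%, and Ngp 17.8%, 18.1% and 18.8%. Ltf held 2.73%, 3.27% and 2.11%, and Camp 0.697%, 0.724% and 0.482%. Cd177 held 0.278%, 0.303% and 0.222%, Mmp9 0.353%, 0.387% and 0.279%, and Retnlg 0.136%, 0.119% and 0.110%. All 5 of these had their smallest mean share with FAC, though the FAC and control shares of Cd177, Mmp9 and Retnlg overlapped. For Mmp9 they were 0.169 to 0.332% with FAC and 0.305 to 0.401% in control. Mmp8, at 0.440%, 0.354% and 0.621%, had its largest mean share with FAC. In FAC replicate 6 the Mmp8 share was only 0.361%, below both controls (0.466% and 0.415%). Lcn2 held 3.87%, 4.12% and 3.93%.

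Other granulocyte genes in BMDEs are given by the same lists. Eosinophil markers ran opposite to the 10 genes: 10 of 12 fell with DFO (median −1.03), 5 of 12 rose with FAC, and 12 of 12 were higher in FAC than in DFO (median 1.49), with Prg2, the major basic protein gene, differing by 1.75 and Ear1 by 2.48. Their summed level was 43056 to 43994 CPM in control, 19078 to 22460 CPM with DFO and 58464.5 to 70501 CPM with FAC. Neutrophil markers outside the 10 genes rose for 6 and fell for 1 of 12 with DFO, fell for 5 of 12 with FAC, and were lower for 11 of 12 in FAC than in DFO (median −1.30). Their summed level was 1781 to 2085 CPM in control, 2984 to 3267 CPM with DFO and 1214 to 1254 CPM with FAC. The exception was Ly6g, which fell with DFO by 1.38 (adjusted p = 0.00883) and was higher by 2.26 in FAC than in DFO (37.1 against 7.74 CPM on average).

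Of 30 tested secondary, tertiary and secretory granule genes outside the set, 11 rose and none fell with DFO, and 8 fell and 2 rose with FAC. Chil1, a chitinase-like protein gene, rose by 0.88 with DFO and fell by 0.76 with FAC, and Fcnb by 0.82 and 0.83. Slpi, a protease inhibitor, rose with FAC (1.09, adjusted p = 0.0477). Of 14 tested primary granule genes 3 rose and 3 fell with DFO, and 3 fell with FAC. Of 18 neutrophil receptors 9 rose and 1 fell with DFO, and 7 fell and 1 rose with FAC: Csf3r rose by 0.71 with DFO and fell by 0.61 with FAC.

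Of 14 transcription factors 2 rose and 1 fell with DFO, and 2 rose and 1 fell with FAC. Cebpe, the factor named above for secondary granule genes, went against the 10 genes: it fell by 0.82 with DFO (179 against 316 CPM, adjusted p = 0.00571) and stood at 420.3 CPM with FAC (0.41, adjusted p = 0.101, not called). Of 18 tested receptors, partners and inhibitors of the 10 proteins, 2 rose with DFO, and 3 fell and 1 rose with FAC.

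Markers of other cells also differed between the BMDE arms. Of 10 dendritic cell markers 7 rose with DFO and 5 fell with FAC, with summed levels of 961 to 1037 CPM in control, 1742.5 to 1834 CPM with DFO and 560 to 927 CPM with FAC and none at 0. Of 10 progenitor markers 5 rose with DFO, and 4 fell and 1 rose with FAC (summed level 1378 to 1396, 1558 to 1641 and 1362 to 1438 CPM). Of 15 monocyte and macrophage markers 4 rose and 2 fell with DFO (2401 to 2517 CPM against 2475 to 2640 CPM in control). With FAC 2 of them rose and 4 fell, and their summed level was 2753 to 4010 CPM, above control. Whether the share of neutrophil-lineage cells in the cultures differed between arms was not tested.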

How the data were processed

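Per the labels, oligo(dT) selection and the NEBNext Ultra chemistry were used for the libraries, and no source used here gives a strand setting. The submitters' processing notes name mm10, RSEM, HISAT2, Bowtie2 2.2.8, fastp 0.18.0 and StringTie 1.3.1, without saying which tool made which column. The authors deposited expected counts (estimated reads per gene) for the eosinophil and GMP table and the BMDE table, and whole read counts for the T2 table. The authors also deposited FPKM, used here only for the make-up of the set, and TPM, which was not used. Deposited columns with a log2 ratio and p-values of the authors' own test in the T2 table were not used.

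The members and lists were chosen with earlier results of these data known. Expected counts were rounded (18.2% and 6.56% of the values in the GMP and BMDE tables held a fraction). From the T2 data 1 row that named no gene was left out, and 3 rows with 0 counts carried a member's symbol under another identifier; members were matched by identifier. The 3 tables were fitted separately, with R 4.3.3, limma 3.58.1 and edgeR 4.0.16, using filterByExpr, TMM factors and the two-sided quasi-likelihood F test; the 3 BMDE arms were 1 fit. All 10 members passed the filter in every table. Values are means with SD, or single libraries, in CPM; SE comes from the F statistic. Reads per kilobase used the longest GENCODE M21 transcript. The text names all 10 members and, from each list, genes by a rule on the largest and smallest fold change and the highest level in bone marrow eosinophils; Ly6g, Csf3r, Cebpe, Irf8, Pecam1, Cxcr2, Tlr4 and others outside it were named after their values were seen. The scripts were tested on simulated data. Alternatives were RLE and upper-quartile factors, no filter, DESeq2 1.42.0, a replicate block, a fit of 2 arms and leaving out each library; the fit of DFO against control without FAC replicate 6 and the FPKM make-up were chosen after seeing the data. An item withheld from the text is not reported here.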

Additional observations from a re-analysis of the deposited data

Results flagged for a closer look

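In BMDEs with FAC, the only group of 4 or more libraries, 11 items (the 10 genes and their sum) were checked for a library far from the others, and 2 stood out; chance flags about 1 in 20 such groups. Ltf was 640.6 CPM in FAC replicate 6 against 559 to 565 CPM in the other 3 FAC libraries. Camp was 54.4 CPM in FAC replicate 6 against 30.5 to 33.4 CPM in the others. In both the gap to the nearest library exceeded Dixon's critical share of the range (0.829). FAC replicate 6 also gave the highest FAC values for Lcn2 (498.6 CPM), Ngp (2692 CPM), S100a8 (2147 CPM), S100a9 (2994 CPM) and Retnlg (8.34 CPM), and the lowest for Mmp8 (117 CPM) and Mmp9 (71.5 CPM).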

How the results depend on the processing

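All 10 genes were called higher in bone marrow eosinophils than in GMPs under each of 11 alternatives, the lowest log2 fold change being 4.31 (Mmp8). Over all genes that comparison called 2413, against 1419 with a replicate block, 4055 in DESeq2 and 747 to 4623 with 1 library left out (4623 without eosinophil replicate 3, 3013 without replicate 1, 1452 without replicate 2, and 747, 880 and 974 without GMP replicates 1, 2 and 3). DFO against control called 1460 genes, against 5982 in a fit of the 2 arms, 4899 without FAC replicate 6 (chosen after seeing the data) and 217 to 699 with 1 compared library left out, where 2 to 5 members were called; upper-quartile factors called 7 members, DESeq2 9 and the fit of 2 arms 10. FAC against control called 761 genes, against 1300 in DESeq2, 116 in the fit of 2 arms and 76 to 2728 with 1 library left out (2728 without FAC replicate 6). The fit of 2 arms called 2 members there, and leaving out 1 library 2 to 9. DESeq2 also moved the share of those calls that were higher from 29.2% to 42.8%. FAC against DFO called 4250 to 7855 genes with 1 library left out, and Mmp8 lost its call without DFO replicate 11 (−0.42, adjusted p = 0.0708). The causes were not tested.

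The log2 fold change of Mmp8 with FAC changed sign without control replicate 2 (−0.19), FAC replicate 7 (−0.03) or FAC replicate 8 (−0.02); with 1 library left out it ran from −0.19 to 0.24. The library 3 to library 1 ratio in bone marrow eosinophils turned to 0.901 for Ltf and 0.694 for Cd177 with plain library sizes. In T2 against resting eosinophils, upper-quartile factors moved the median of all genes by −0.12; no member changed direction. Replicate numbers did not pair the libraries: deviations of same-numbered libraries correlated at 0.01, −0.00017 and 0.13 in the GMP table and at −0.01, −0.02 and 0.03 in the T2 table, and only number 3 correlated best with its own number. With the replicate block the T2 comparison called 8498 genes and 8 members, and the GMP comparison 10 members. In BMDEs no paired analysis was possible because the arms share no replicate numbers. Depth limits the members with few reads a library. In the T2 table these include Camp (11 to 49), Cd177 (38 to 74), Mmp8 (40 to 83), S100a8 (59 to 151) and Lcn2 (93 to 246). In GMPs they include Mmp9 (15 to 84) and Retnlg (33 to 34). The control BMDEs have only 2 libraries.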
